A study of Mus musculus with 6 samples.

Results

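The genes described here encode the protein subunits of the mitochondrial respiratory chain and the ATP synthase, measured in 3 fat depots of Kdm4b KO and WT mice. Members were found by symbol: Ndufa, Ndufb, Ndufc, Ndufs and Ndufv genes without the Ndufaf assembly factors for complex I, Sdha to Sdhd for complex II, the Uqcr genes and Cyc1 for complex III, Cycs for cytochrome c, the Cox4i, Cox5, Cox6, Cox7 and Cox8 genes for complex IV, and the Atp5 genes for complex V. Cox7a1, Cox8b and Cox6a2 were kept out by this rule and are described separately. Of the 18194 genes with a probe set that carries a single gene symbol, 81 were members: 36 in complex I, 4 in complex II, 9 in complex III, 1 for cytochrome c, 14 in complex IV and 17 in complex V. Each gene was read from the probe set with its highest mean log2 signal. Of 87 protein-coding genes that match the rule in RefSeq, 6 had no such probe set and were not analysed here. A signal of 63.1, the 40th percentile of the probe sets, was used as a floor below which values were set to it. With this floor, 78 members were above it on all 6 arrays and 3 (Ndufb4, Cox4i2 and Cox7b2) on only some. The fits described below needed a gene above the floor on at least 3 arrays, and 79 members passed.

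The study hybridised total RNA from brown, subcutaneous and epididymal fat of Kdm4b KO and WT male mice to Affymetrix arrays, with 1 array for each depot and genotype. All animals were 2 months old, ate chow, lived at room temperature and had been fasted for 6 hours. Kdm4b encodes a histone demethylase, and the labels give neither the number of mice behind an array nor the cells in which the gene was deleted. The comparison of genotypes therefore has no replicate inside a depot. The Kdm4b signal was 95.2 in KO and 134.6 in WT brown fat, 156.7 in KO and 272.1 in WT subcutaneous fat, and 188.4 in KO and 226.7 in WT epididymal fat. It was lower on the KO array in each depot, by 0.50, 0.80 and 0.27 on the log2 scale, from a single probe set whose position relative to the deleted part is not stated. All arrays had been scaled to the same trimmed mean of 500.0, and between 12652 and 13602 genes were above the floor.

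The inner mitochondrial membrane carries out oxidative phosphorylation. Complexes I and II take electrons from NADH and succinate, complex III passes them to cytochrome c, complex IV hands them to oxygen, and the proton gradient built on the way drives ATP synthesis by complex V. Brown adipocytes are packed with mitochondria whose gradient is discharged as heat by the uncoupling protein Ucp1, and their mitochondria are known to hold little ATP synthase relative to the respiratory chain. Most subunits are encoded in the nucleus, and the nuclear genes are known to be driven by NRF1, by the ETS factor GABP and by the oestrogen-related receptors together with the coactivator PGC-1. The labelled depots carried their defining markers: 7 of 7 brown adipocyte genes were called higher in brown fat and 4 of 4 white adipocyte genes were called lower there.

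Nearly every member rose in brown fat relative to white fat. In the fit with limma over all 6 arrays, with genotype as a term and the Benjamini-Hochberg adjustment over 13234 genes, 75 of 79 members passed an adjusted p of 0.05 as higher in brown fat and 1 passed as lower. Of all genes tested, 21.5% were called higher and 31.2% were called lower. The median member difference was 1.53 on the log2 scale, a 2.89-fold higher signal in brown fat, while the median of all genes tested was -0.11. Both brown arrays lay above all 4 white arrays for 76 of the 79 members and below all of them for 1. The same count was not made over all genes, so these 2 counts have no share to stand beside. Markers of other cells differed between the same depots: 5 of 5 macrophage and 6 of 6 lymphocyte genes were called lower in brown fat, with medians of -2.44 and -2.92, and 4 of 7 general adipocyte genes were called higher, with a median of 0.64. Their part in the members' values was not tested. In whole tissue, more cells of a type and more RNA per cell cannot be told apart, and here the KO and WT arrays of a depot stand in for replicates.

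**Figure D1:**
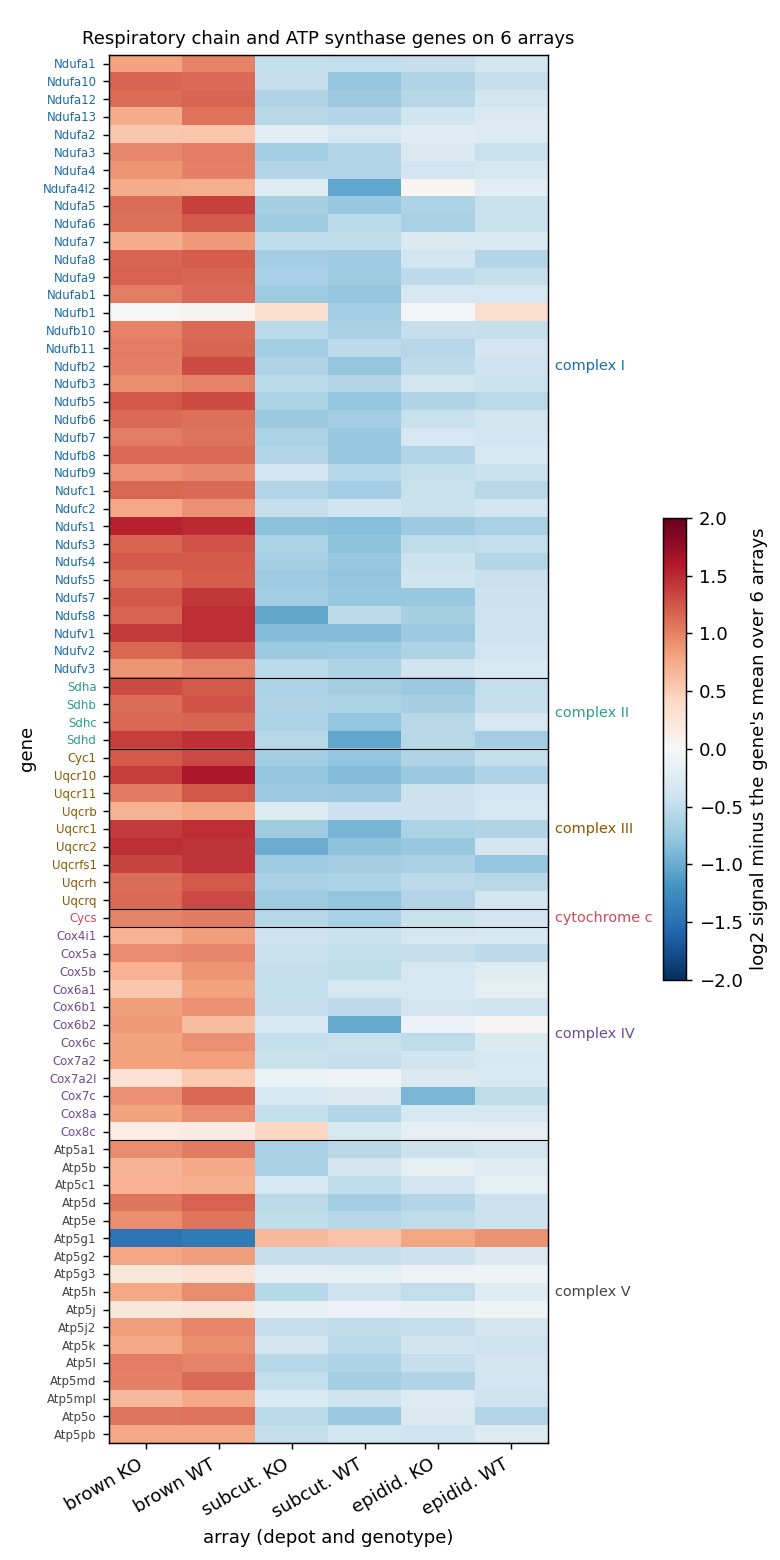
Log2 signal of the 78 members above the floor on all 6 arrays, each gene centred on its own mean. Columns are arrays ordered brown, subcutaneous and epididymal fat with KO left of WT, rows are genes coloured by complex, and red is above and blue below the gene's mean. The 2 brown columns are red for nearly all rows, and the Atp5g1 row is blue there.

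The median rise was larger for complexes I, II and III than for complexes IV and V. The median log2 difference, brown over white, was 1.70 for 35 complex I genes, 1.84 for 4 complex II genes and 1.91 for 9 complex III genes. It was 1.53 for Cycs, 1.18 for 13 complex IV genes and 1.28 for 17 complex V genes. In folds these medians were 3.26, 3.57, 3.76, 2.89, 2.27 and 2.42. When the members were ordered by size of difference, the upper 30 all belonged to complexes I to III, which supplied 48 of the 79 members. None of the 30 genes of complexes IV and V were among them (the number 30 was chosen after the values were seen). Below that cut the complexes overlapped. Genes called higher ran between 0.82 and 2.28 in complex I and between 1.10 and 2.25 in complex III. They ran between 0.62 and 1.55 in complex IV and between 0.37 and 1.68 in complex V. Probe set brightness also differed between complexes. The median signal over the arrays was 11717 for complex I, 9293 for complex II and 13983 for complex III. It was 25280 for Cycs, 20811 for complex IV and 15394 for complex V. Across the 72 members with a signal above 1000 on all arrays, the difference and the mean signal had a Spearman rho of -0.54 and a Pearson r of -0.39. Over all 79 members these were -0.23 and 0.35, so the sign depended on the measure. Both are descriptions over genes that share the same arrays. The part of probe brightness in the order of the complexes was not tested.

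In complex I, 34 of 35 genes rose, core and accessory subunits among them. Ndufs1, the iron-sulphur subunit next to the NADH-oxidising end of the enzyme, had signals of 19447 in KO and 18769.6 in WT brown fat, 3793 in KO and 3683 in WT subcutaneous fat, and 4039 in KO and 4244 in WT epididymal fat. Its difference of 2.28 ± 0.12 (log2, SE, adjusted p = 0.000438, limma) was the largest of all members. Ndufv1, which binds NADH and flavin, was next in this complex, with 24779.6 in KO and 26326 in WT brown fat, 5159.6 and 5186 in KO and WT subcutaneous fat, and 5703 and 7039.6 in KO and WT epididymal fat. That gene differed by 2.16 (adjusted p = 0.000485, limma). The other core subunits read here, Ndufs3, Ndufs7, Ndufs8 and Ndufv2, rose by 1.82, 1.99, 1.99 and 1.83 on the log2 scale. The accessory subunits Ndufb5, Ndufa5 and Ndufs4 rose by 1.91, 1.87 and 1.84, and Ndufab1, the mitochondrial acyl carrier protein, by 1.62. Among the 34 complex I genes called higher, differences ran between 0.82 for Ndufa2 and 2.28. Ndufb1, a small accessory subunit, was the exception at 0.04 (adjusted p = 0.916, limma). Its dim signals overlapped between depots, at 268 in KO and 278 in WT brown fat, 334 and 166 in KO and WT subcutaneous fat, and 259.8 and 344 in KO and WT epididymal fat. Ndufa4 is filed under complex I by symbol, although its protein is now known as a subunit of complex IV, and its difference of 1.42 lay between the medians of both complexes.

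All 4 subunits of succinate dehydrogenase, the enzyme shared by the respiratory chain and the citric acid cycle, rose together. Sdhd, a membrane anchor, differed most, at 2.14, with 16313 in KO and 17176 in WT brown fat, 4229 and 3031 in KO and WT subcutaneous fat, and 4256 and 3841 in KO and WT epididymal fat. The flavoprotein Sdha differed by 1.90, the iron-sulphur protein Sdhb by 1.78 and the other anchor Sdhc by 1.73, so the complex spanned a narrow range.

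All 9 complex III genes rose, with a median close to that of complex II. Uqcr10, a small subunit near the cytochrome c1 end, gave 22534 in KO and 26616 in WT brown fat, 5027.5 and 4779 in KO and WT subcutaneous fat, and 5207 and 5663 in KO and WT epididymal fat. Its difference was 2.25 (adjusted p = 0.000461, limma), and both brown values stood more than 3-fold above every white value. The core proteins Uqcrc2 and Uqcrc1 differed by 2.19 and 2.16, the Rieske iron-sulphur protein Uqcrfs1 by 2.10 and cytochrome c1, encoded by Cyc1, by 1.91. Uqcrb rose by 1.10, and its brown signals, 57288 in KO and 60791 in WT, were close to the highest on those arrays, 58778 and 62775, and the part of that upper end in its value was not tested. Cytochrome c itself, Cycs, gave 50480.5 in KO and 51998 in WT brown fat, 17109.7 and 16043 in KO and WT subcutaneous fat, and 18592 and 19485 in KO and WT epididymal fat, a difference of 1.53 (adjusted p = 0.000728, limma).

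Complex IV genes rose less, and 2 of 13 did not pass. The ubiquitous subunit Cox4i1 gave 41895 in KO and 45773 in WT brown fat, 19244.5 and 18989.6 in KO and WT subcutaneous fat, and 20252 and 20684.5 in KO and WT epididymal fat. The groups did not overlap, and the difference was 1.15 (adjusted p = 0.0015, limma). Cox5a, Cox5b, Cox6a1, Cox7a2 and Cox8a rose by 1.45, 1.18, 1.01, 1.21 and 1.31 on the log2 scale. Cox7c differed most, at 1.55, from a probe set with signals between 221 and 926. Cox7a2l, known as a factor that joins complexes III and IV into supercomplexes, rose by 0.62 (adjusted p = 0.0118, limma). The oxygen-sensitive isoform Cox4i2, near the floor, differed by 0.66 (adjusted p = 0.0608, limma) and the testis-type Cox8c by 0.23 (adjusted p = 0.382, limma). Another testis-type gene, Cox6b2, did pass, at 1.10, with signals of 380 in KO and 322 in WT brown fat and between 103 and 215 in the white depots.

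The isoforms of complex IV that the rule left out showed the widest contrast. Cox7a1, the isoform of heart, skeletal muscle and brown fat, gave 26808 in KO and 29969.7 in WT brown fat, 1182 and 940.1 in KO and WT subcutaneous fat, and 1392 and 1928 in KO and WT epididymal fat. It rose by 4.43 ± 0.19 (log2, SE, adjusted p = 0.000438, limma), beside 1.21 for its widely expressed counterpart Cox7a2. Cox8b, with the same tissue pattern, rose by 2.82 (adjusted p = 0.000438), beside 1.31 for Cox8a. Cox6a2, the third muscle-type isoform, did not pass, at -0.47 (adjusted p = 0.623, limma). Its signals were 132.5 in KO and 596 in WT brown fat, 1909 and 665 in KO and WT subcutaneous fat, and 86.1 and 211 in KO and WT epididymal fat. A list of 12 skeletal muscle genes varied in the same arrays, with summed signals of 8879 in KO and 30714 in WT brown fat, 89629 and 78027 in KO and WT subcutaneous fat, and 6562 and 9573 in KO and WT epididymal fat, and its part in the Cox6a2 values was not tested.

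**Figure D2:**
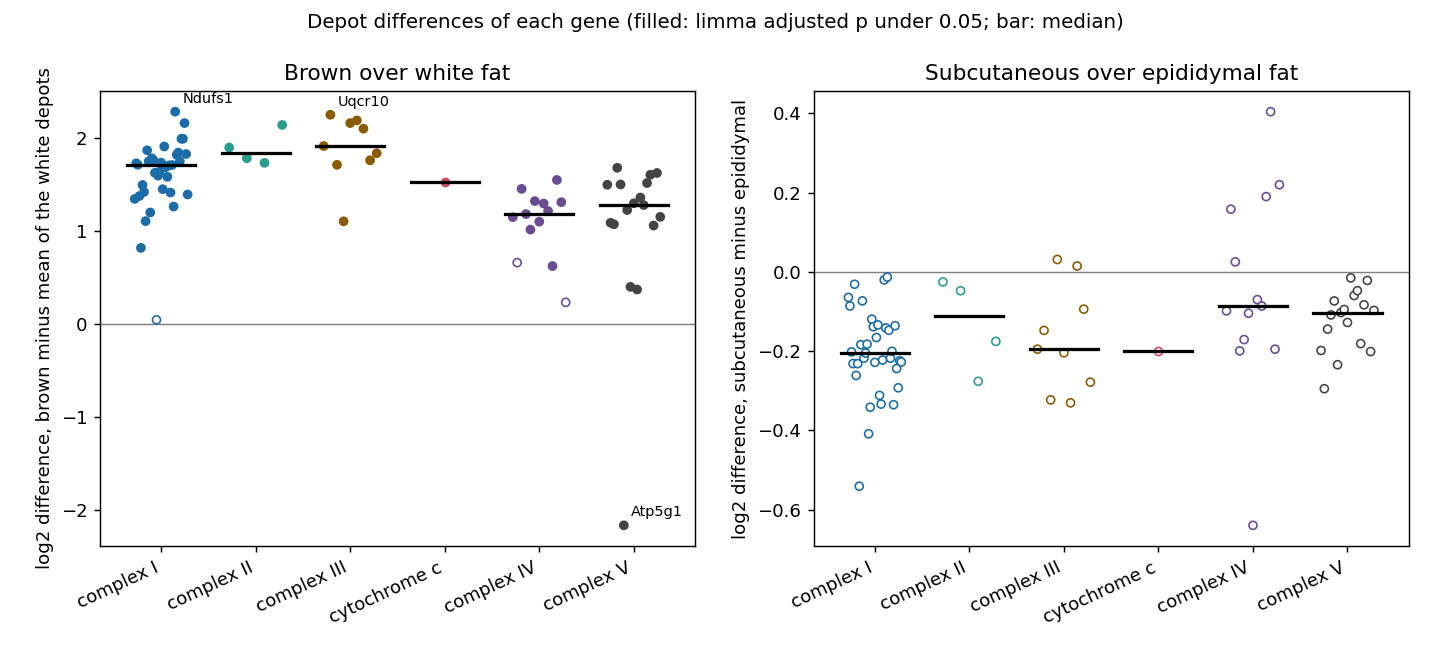
Log2 difference of each member by complex, for brown over the mean of both white depots (left) and subcutaneous over epididymal fat (right). Filled points passed an adjusted p of 0.05 in limma, open points did not, and bars are medians. On the left the bars sit at 1.70, 1.84 and 1.91 for complexes I to III and at 1.18 and 1.28 for complexes IV and V, with Atp5g1 at -2.16. On the right no point is filled.

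ATP synthase genes rose with a lower median, and the genes of its membrane ring diverged. Of 17 members, 16 were called higher, between 0.37 for Atp5j and 1.68 for Atp5d. The catalytic head subunits alpha, beta and gamma, encoded by Atp5a1, Atp5b and Atp5c1, rose by 1.49, 1.09 and 1.07 on the log2 scale. Subunit c, which forms the rotating ring in the membrane, is made from 3 genes whose mature proteins are known to be identical. Atp5g1, the first of them, gave 435 in KO and 455 in WT brown fat, 1889.6 and 1789.5 in KO and WT subcutaneous fat, and 2080.5 and 2249 in KO and WT epididymal fat. It was the only member called lower in brown fat, at -2.16 ± 0.12 (log2, SE, adjusted p = 0.000449, limma), and the brown arrays lay far below every white array. Atp5g2 gave 12667 in KO and 13047 in WT brown fat, 5331 and 5297 in KO and WT subcutaneous fat, and 5445 and 5980.0 in KO and WT epididymal fat. It rose by 1.22 (adjusted p = 0.00125, limma), so 2 genes for the same protein went in opposite directions. Atp5g3 gave 24718 in KO and 26344 in WT brown fat, 19019 and 18462 in KO and WT subcutaneous fat, and 19812 and 20217 in KO and WT epididymal fat, a difference of 0.40 (adjusted p = 0.0411, limma). That call was lost with any single array left out (adjusted p between 0.0913 and 0.183), and quantile normalization gave -0.21. The Atp5g1 value rests on 1 probe set, as its other probe set was below the floor on every array. Low Atp5g1 expression in brown fat is known from earlier work on its ATP synthase.

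**Figure D3:**
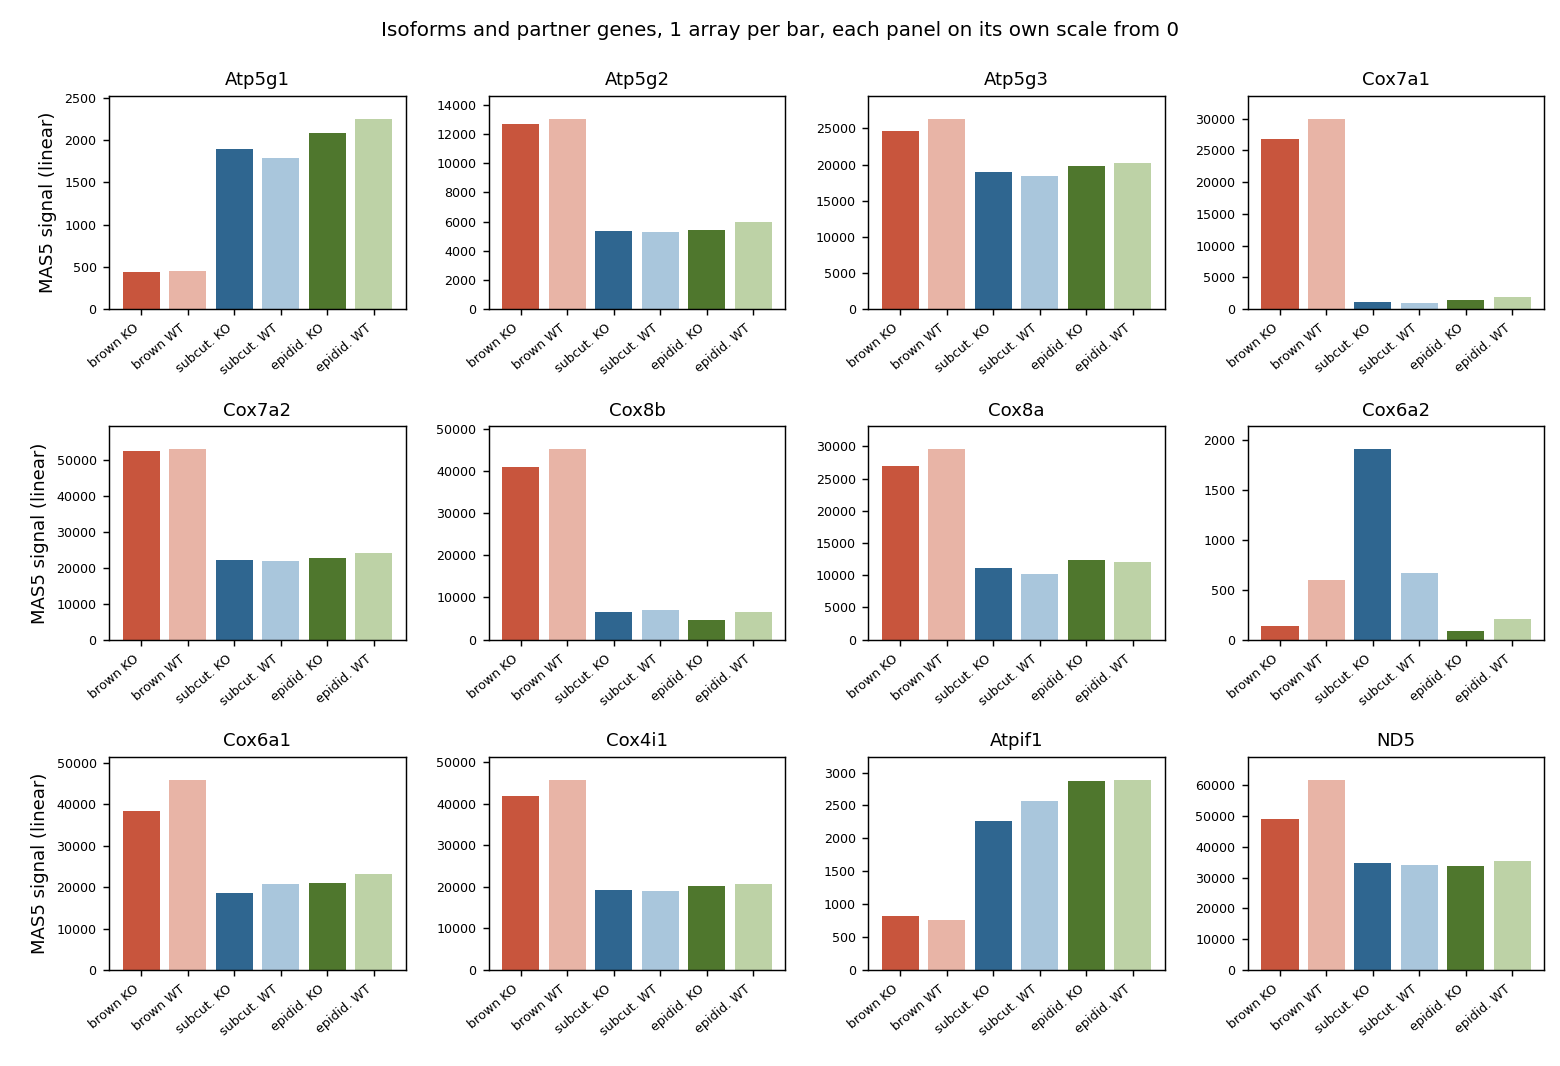
MAS5 signal of subunit isoforms and partner genes on a linear axis from 0, each panel with its own scale. Bars are single arrays, brown, subcutaneous and epididymal fat with KO left of WT. Atp5g1 and Atpif1 are the panels with the brown bars lowest, Cox7a1 and Cox8b those with the brown bars far above all others, and Cox6a2 is highest in KO subcutaneous fat at 1909.

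The promoter sequences of a few members are printed to show what the brown-high genes and Atp5g1 carry upstream of their starts. RefSeq promoter windows on build GRCm38.p6, from 250 bases before to 50 bases after a gene's start, were held for 66 of the 81 members, in 71 windows. On either strand, 3 motifs were searched: the palindromic NRF1 core CGCATGCG, the ETS core CCGGAAG bound by GABP, and AAGGTCA, the core bound by oestrogen-related receptors. The NRF1 core stood in 12.7% of member windows and in 1.87% of all 32851 windows, the ETS core in 23.9% and 8.86%, and the receptor core in 11.3% and 4.72%. Matches are descriptions of letters, and the motifs do not contain each other. Cycs carries the NRF1 core, in capitals, starting 61 bases before the start, written as -61. Uqcr10 is the member with the largest brown over white difference that has a window, and Atp5g1 is the member lower in brown fat. Neither holds any of the 3 motifs in these windows. The windows are Cycs at chr6:50566520-50566819, Uqcr10 at chr11:4704295-4704594 and Atp5g1 at chr11:96075582-96075881, all on the minus strand and printed 5′ to 3′ along the gene.
Cycs: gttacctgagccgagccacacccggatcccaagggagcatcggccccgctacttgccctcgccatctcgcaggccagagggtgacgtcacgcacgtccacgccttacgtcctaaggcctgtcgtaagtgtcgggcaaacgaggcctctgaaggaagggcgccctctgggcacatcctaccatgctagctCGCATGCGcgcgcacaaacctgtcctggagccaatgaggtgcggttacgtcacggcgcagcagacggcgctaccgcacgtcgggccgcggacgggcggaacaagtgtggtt
Uqcr10: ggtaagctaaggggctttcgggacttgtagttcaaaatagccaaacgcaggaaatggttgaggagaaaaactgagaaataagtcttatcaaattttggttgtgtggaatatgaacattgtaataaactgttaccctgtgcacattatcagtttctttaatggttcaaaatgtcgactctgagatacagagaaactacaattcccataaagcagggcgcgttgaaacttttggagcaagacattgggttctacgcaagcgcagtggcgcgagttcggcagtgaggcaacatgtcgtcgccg
Atp5g1: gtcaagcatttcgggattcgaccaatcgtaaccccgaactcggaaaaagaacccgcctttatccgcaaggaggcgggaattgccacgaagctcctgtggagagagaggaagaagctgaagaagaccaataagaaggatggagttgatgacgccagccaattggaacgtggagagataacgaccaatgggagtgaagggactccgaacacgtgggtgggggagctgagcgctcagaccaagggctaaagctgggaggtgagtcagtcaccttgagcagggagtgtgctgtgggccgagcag
Members with and without a motif differed little in brown over white size. The medians were 1.51 for 9 members with the NRF1 core and 1.60 for 55 without, 1.58 for 17 with the ETS core and 1.59 for 47 without, and 1.51 for 7 with the receptor core and 1.59 for 57 without. These medians cover members in the fit, which left out Ndufb4, another holder of the receptor core, and they are given with no test.

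Genes that build or control the chain were read from lists of the pathway. Of 44 assembly factors in the fit, 42 were called higher in brown fat and 0 lower, with a median of 1.29. The largest differences were 2.12 each for Ndufaf4 and Ndufaf5, both complex I assembly factors. Among 16 biogenesis regulators, 9 were called higher and 2 lower. The coactivator genes Ppargc1a and Ppargc1b rose by 3.39 and 3.27, the receptor genes Esrra and Esrrg by 2.43 and 3.27, and the mitochondrial transcription factor Tfam by 0.75. Nrf1 at 0.19 (adjusted p = 0.231, limma) and Gabpa at 0.04 (adjusted p = 0.846, limma) did not pass, and the regulator Pprc1 was called lower, at -0.78. Among 15 carriers and coupling genes, 12 were called higher and 2 lower. Ucp1 rose by 3.64 and the glycerol-phosphate dehydrogenase Gpd2 by 3.48. The 2 called lower were Atpif1, the inhibitor of ATP hydrolysis by complex V, at -1.73, and Nnt, the transhydrogenase that makes mitochondrial NADPH, at -3.24. Atpif1 gave 825 in KO and 766 in WT brown fat, 2264 and 2573.5 in KO and WT subcutaneous fat, and 2876 and 2891 in KO and WT epididymal fat. The mitochondrially encoded complex I subunit ND5, the only mitochondrial DNA gene read here, rose by 0.68 (adjusted p = 0.0119, limma). Its WT brown signal of 61806 was close to the array's highest, 62775, so its size is not set against other genes.

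The scale of the brown over white difference moved with normalization. For all genes tested, the median was -0.11 with the values as deposited, -0.01 with quantile normalization, 0.11 with each array centred on its median and -0.01 with cyclic loess. Relative to those medians the members stood at 1.64, 1.005, 1.66 and 1.13. The share of higher among all called genes was 40.9%, 48.1%, 56.0% and 48.4% in the same order. Complexes I to III kept larger medians than complexes IV and V under all 4 scalings, for example 1.13, 1.43 and 1.33 against 0.63 and 0.66 after quantile normalization. The counts called higher were 72 of 79 after quantile normalization and after cyclic loess. Cox6a1 lost its call under both (0.35, adjusted p = 0.0578 and 0.0516, limma), and so did Atp5j, whose sign turned to -0.09 and -0.04. Ndufa2 lost it after quantile normalization alone (0.26, adjusted p = 0.119) and Uqcrb after cyclic loess alone (0.36, adjusted p = 0.0576). Atp5j also lost it with any single array left out, with an adjusted p between 0.123 and 0.159. Cox6b2 lost its call without either brown array (adjusted p = 0.0513 without KO and 0.0573 without WT), and Cox7a2l and Ndufa4l2 lost theirs without the WT brown array (adjusted p = 0.0789 and 0.0524). Atp5c1, at 0.43, and Ndufa12, at 0.23, did not pass from probe sets that are not shared between transcripts (adjusted p = 0.138 and 0.253).

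The size of the depot difference was close in both genotypes. The median member was 1.49 log2 units higher in brown than in white fat in KO mice, and 1.56 in WT mice. The difference between those differences, KO minus WT, had a median of -0.10 and was below 0 for 60 of 79 members, beside 52.5% of all genes. It was -0.10 for complex I, -0.13 for complex III, -0.11 for complex IV, -0.05 for complex V and -0.02 for complex II. The median of all genes was -0.02. A limma fit with a brown by genotype term, in which both white depots share 1 genotype effect, leaves 1 residual degree of freedom. It called 0 members and 0% of all genes (smallest adjusted p of a member 0.736), and before adjustment 0 members passed 0.05, beside 8.06% of genes either way. This fit was chosen after seeing the data.

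Subcutaneous fat gave lower signals than epididymal fat for most members on the deposited scale, and none passed the test. The median was -0.17 on the log2 scale against 0.00 for all genes, and 72 of 79 members were below 0, beside 49.9% of genes, including 35 of 35 in complex I and 17 of 17 in complex V. After quantile normalization the median was -0.10 with 60 of 79 below 0, and after cyclic loess -0.03 with 48 of 79. Relative to the medians of all genes these were -0.03 and -0.02, against -0.17 as deposited. With limma, 0 members were called in either direction, beside 3.91% of genes called higher and 1.16% called lower. Before adjustment, 1 member passed 0.05 as higher and 2 as lower, beside 12.6% and 8.97% of genes. The smallest adjusted p was 0.187, for Ndufab1 at -0.41. Both of its subcutaneous values, 7598 in KO and 7270.5 in WT, were below both epididymal values, 9833 in KO and 9901 in WT. Across the members, both subcutaneous arrays lay below both epididymal arrays for 49 and above them for 2 on the deposited scale. That count was not made over all genes or after other scalings. The largest decreases by complex were -0.54 for Ndufa4l2, -0.28 for Sdhc, -0.33 for Uqcrc2, -0.64 for Cox6b2 and -0.29 for Atp5b. Cox7c had the largest increase, 0.40. The median ranged between -0.03 and -0.22 under the other scalings and with single arrays left out. Markers of other cells differed between the same depots: 12 of 12 skeletal muscle genes were higher in subcutaneous fat (median 4.25, 2 called), 6 of 6 lymphocyte genes were called higher (median 3.71), and 4 of 4 mesothelial genes were called lower (median -3.89). General adipocyte genes were lower for 7 of 7, with a median of -0.26 and 0 called. Brown adipocyte genes were lower for 5 of 7 and higher for 2, with a median of -0.16 and 1 called lower. White adipocyte genes were lower for 4 of 4, with a median of -0.44 and 0 called. The part of these lists in the members' values was not tested. The share of higher among all called genes was 77.2% as deposited, 62.3% after quantile normalization, 74.8% after centring and 67.2% after cyclic loess.

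Differences of KO from WT in these genes were small in every depot. In KO brown fat 70 of 81 members had a lower signal than in WT brown fat, beside 53.6% of all measured genes, with a median of -0.09 against -0.03 for all genes. After quantile normalization 48 were lower, with a median of -0.01, and after loess within the pair 57, with a median of -0.04, both against 0.00 for all genes. At least 1.2-fold lower were 4 members and at least 1.2-fold higher were 0, beside 24.4% and 17.8% of genes. No member reached 1.5-fold either way, which 13.8% of genes did. By complex the medians were -0.09 for complex I, -0.05 for complex II, -0.09 for complex III, -0.11 for complex IV and -0.09 for complex V. The largest decrease, -0.50, belonged to the dim Ndufb4, with 112 in KO and 159 in WT. Among bright genes Ndufa13, an accessory subunit, was at -0.33, with 24824 in KO and 31280.2 in WT. Uqcr10 was at -0.24, Cox6a1 at -0.26, Sdhb at -0.14 and Atp5h, a stalk subunit, at -0.17. The largest increases were 0.24 for Cox6b2, 0.08 for Sdha, 0.05 for Ndufs1, 0.03 for Uqcrc2 and 0.02 for Atp5l.

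In subcutaneous fat most members were higher on the KO array. Of 79 members 59 were higher and 20 lower, beside 45.4% of all genes lower, with a median of 0.06 against 0.04 for all genes. Past 1.2-fold, 2 were lower and 7 higher, beside 16.5% and 23.9% of genes, and 5 passed 1.5-fold, beside 12.5% of genes. All 5 were dim: Ndufb1 at 1.005, with 334 in KO and 166 in WT, Ndufa4l2 at 0.79, Cox8c at 0.76, Cox6b2 at 0.69 and Cox4i2 at 0.64, whose WT signal was below the floor. Among bright members Sdhd was highest, at 0.48, with 4229 in KO and 3031 in WT. The other largest increases were 0.21 for Uqcrc1 and 0.19 for Atp5o, and the largest decreases were -0.19 for Uqcrc2, -0.15 for Cox6a1 and -0.28 for Atp5b. Ndufs8, a core complex I subunit, had the largest decrease, -0.51, with 5799 in KO and 8271 in WT. That value rests on the choice of probe set, since its 5 other probe sets were higher in KO and the mean of all 6 gave 0.09.

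In epididymal fat 56 of 79 members were lower on the KO array, beside 53.4% of all genes, with a median of -0.08 against -0.02 for all genes. Past 1.2-fold, 6 were lower and 2 higher, beside 22.6% and 17.6% of genes, and 0 passed 1.5-fold, beside 11% of genes. The largest decreases by complex were -0.40 for Ndufb1, -0.24 for Sdha, -0.37 for Uqcrc2, -0.40 for Cox7c and -0.24 for Atp5h, and Cycs was at -0.07. Uqcrc2 gave 8314 in KO and 10767 in WT. Core complex I genes were among the lower ones, with Ndufs7 at -0.33, Ndufv1 at -0.30, Ndufs8 at -0.24 and Ndufv2 at -0.23, while Ndufs1 and Ndufs3 were at -0.07 and -0.02. The largest increases were 0.27 for Ndufa4l2, 0.15 for Sdhd, 0.13 for Uqcrfs1, 0.06 for Cox5a and 0.29 for Atp5o.

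**Figure D4:**
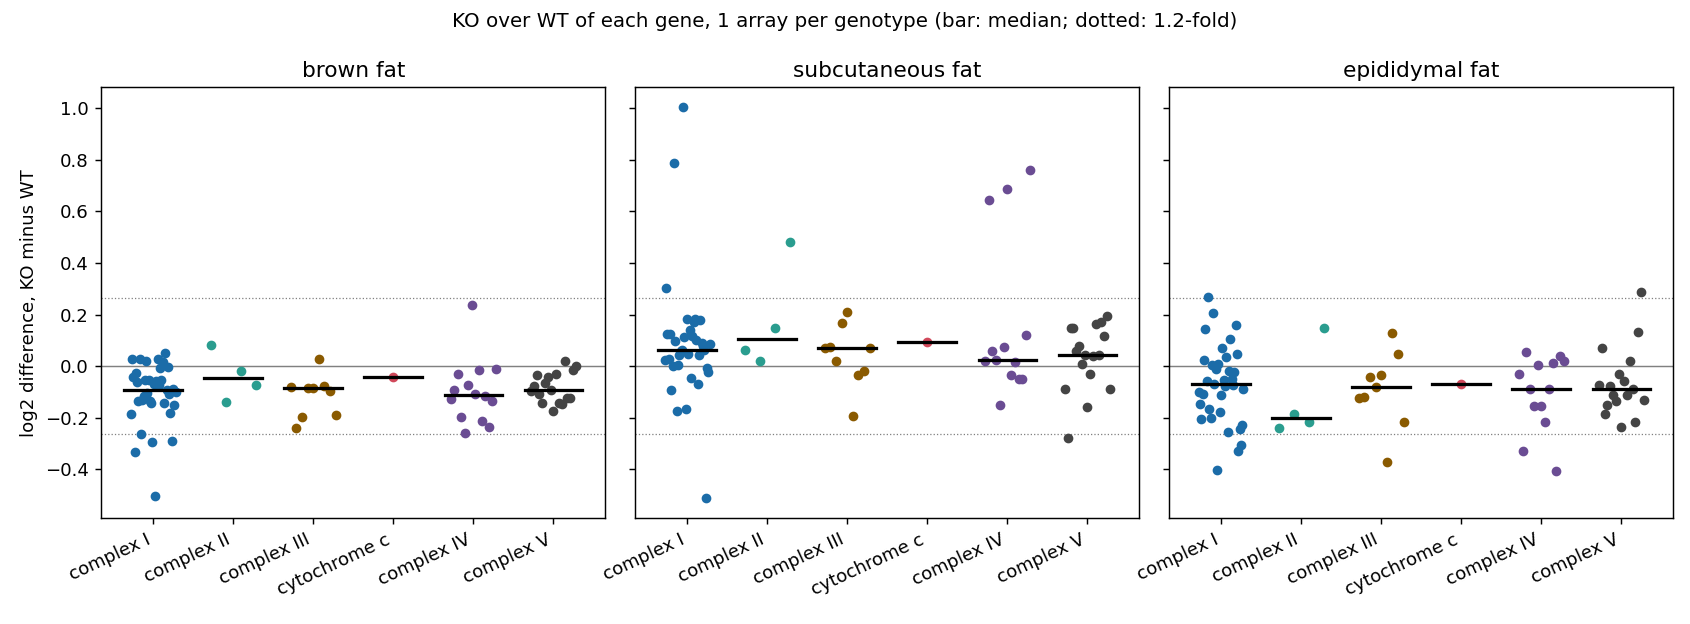
Log2 difference of each member, KO minus WT, in brown, subcutaneous and epididymal fat, by complex. Points are genes from 1 array per genotype, bars are medians, and dotted lines mark 1.2-fold. Medians are -0.09 in brown, 0.06 in subcutaneous and -0.08 in epididymal fat, and the points beyond 1.5-fold are the 5 dim genes in subcutaneous fat.

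Probe sets of the same gene differed in their KO over WT values. Among members with several probe sets, the SD of the KO over WT log2 difference between probe sets of a gene was 0.18 in brown, 0.17 in subcutaneous and 0.18 in epididymal fat. Over all genes with several probe sets it was larger, at 0.33, 0.32 and 0.31. The part of this spread in the shares of all genes past a fold threshold was not tested. Over the 3 depots, limma with depot as a term called 0 members and 0% of all genes. Before adjustment 1 member passed 0.05, beside 8.34% of all genes either way. It was Ndufs8, at -0.35 with an adjusted p = 0.59 (limma). Its subcutaneous value of -0.51 rests on the choice of probe set, and the mean of all its probe sets gave 0.09 there. A p over depots reflects agreement among depots, since each depot had 1 array per genotype. By direction, 12 of the 79 members measured in all depots were lower in KO in all 3, beside 17.2% of 12139 genes. Ndufs8, as read from its chosen probe set, was among those 12. Higher in all 3 were 2 members, beside 16.2% of genes. Lower in epididymal and brown fat but higher in subcutaneous fat were 35 members, beside 12.8% of genes. These counts over depots were made on the deposited scale only. After quantile normalization 48 of 81 members were lower in KO brown fat, 58 of 79 were lower in KO epididymal fat and 60 of 79 higher in KO subcutaneous fat. Without shared probe sets, 36 of 61 were lower in KO epididymal fat. The medians of all genes had the same signs, -0.03, 0.04 and -0.02 in brown, subcutaneous and epididymal fat.

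Other gene lists differed between the KO and WT arrays alongside the members. Of all measured genes, 53.6% were lower in KO in brown fat, 45.4% in subcutaneous fat and 53.4% in epididymal fat. Skeletal muscle genes were lower in KO brown fat for 12 of 12, with a median of -4.32, and in KO epididymal fat for 11 of 12, with a median of -1.08, and their median in subcutaneous fat was 0.19. Oxidative or cardiac muscle genes were higher in KO subcutaneous fat for 5 of 5, with a median of 1.41 and a summed signal of 2249 in KO and 276 in WT. They were lower in KO for 3 of 4 in brown and 3 of 3 in epididymal fat. White adipocyte genes were higher in KO subcutaneous fat for 4 of 4, with a median of 0.63. In brown and in epididymal fat 2 of them were lower and 2 higher. Brown adipocyte genes were lower in KO for 5 of 7 in brown, 4 of 6 in subcutaneous and 4 of 7 in epididymal fat. General adipocyte genes were lower in KO for 6 of 7 in brown, 5 of 7 in subcutaneous and 7 of 7 in epididymal fat. Macrophage genes were lower in KO for 5 of 5 in brown and in subcutaneous fat and higher for 5 of 5 in epididymal fat. The part of these lists in the members' values was not tested. Of the assembly factors, 25 of 45 were higher in KO in brown fat, 34 of 44 in subcutaneous fat and 29 of 44 in epididymal fat, with medians of 0.05, 0.23 and 0.05. Biogenesis regulators were lower in KO for 11, 11 and 12 of 16 in brown, subcutaneous and epididymal fat. The left-out isoforms Cox7a1 and Cox8b were at -0.16 and -0.14 in KO brown fat, at 0.33 and -0.07 in KO subcutaneous fat and at -0.47 and -0.50 in KO epididymal fat.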

How the data were processed

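Total RNA labelled with biotin was hybridised to 6 Affymetrix arrays, 1 for each depot and genotype. The deposited intensity values were made by the authors with MAS5 in Affymetrix Expression Console, per the submitters' processing notes, with no version in the sources used here. MAS5 handles each array alone and scales it to a common trimmed mean, here 500.0 after 2% was cut at each end, so a shift of all RNA in a cell is invisible. Precision is limited by there being only 6 arrays.

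Of 45037 probe sets other than controls, 34945 carried 1 symbol, 932 several and 9160 none, and only those with 1 symbol were named. With control probe sets that carry 1 symbol, 34958 were named, and the gene identifiers of 34754 were found in RefSeq (GRCm38.p6). Signals below 63.1, the 40th percentile, were set to that floor, all were put on the log2 scale, and each gene was read from the probe set with its highest mean. Within a depot, genes with either array above the floor were counted. Genes above it on at least 3 arrays (13234) entered limma 3.58.1 (R 4.3.3) with depot and genotype as terms and Benjamini-Hochberg adjustment over all of them. KO over WT within a depot has no test. The limma step was tested on simulated arrays with independent noise. That does not cover the use of KO and WT arrays of a depot in place of replicates. Python 3.11.15 was used for the rest.

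The members, lists, tests and alternatives were chosen with earlier results of these data known. Genes were named by rule: per complex, the largest increase and decrease of each comparison, the core subunits and isoforms by role, and the isoforms left out. Ndufa13, Pprc1, Gpd2 and other genes outside that rule were chosen after their values were seen. Alternatives were other scalings, floors, filters, probe set rules, a limma intensity trend, and single arrays or depots left out.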

Additional observations from a re-analysis of the deposited data

Results flagged for a closer look

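For Ndufb1 the KO over WT log2 difference was 1.005 in subcutaneous and -0.40 in epididymal fat, a contrast of 1.41. Its probe set is dim. For Cox4i2 the signal was 98.7 in KO and 61.0 in WT subcutaneous fat, and 62.0 in KO and 79.3 in WT epididymal fat. The values of 61.0 and 62.0 were below the floor of 63.1 and were set to it, so the differences of 0.64 and -0.33, a contrast of 0.97, are distances to the floor. Each depot has 1 array per genotype, so neither contrast was tested.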

How the results depend on the processing

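No analysis paired by mouse was possible, because the labels do not say which arrays came from the same mice. The limma fits held depot and genotype as terms. The median brown over white difference of the members was 0.99 after quantile normalization, 1.76 after median centring and 1.11 after cyclic loess, against 1.53 on the deposited scale. The cause was not tested. Without probe sets that may match several transcripts, 0 members were called lower in brown fat, since the remaining Atp5g1 probe set is below the floor, and 36 of 61 members were lower in KO epididymal fat (fewer genes were tested). With an intensity trend in limma, 1 member, Ndufab1, was called lower in subcutaneous than in epididymal fat (adjusted p = 0.0344). Among called brown over white values and KO over WT values within a depot, signs turned for 5 genes named by rule and for Atp5j, and the cause was not tested. Signs of values that passed no test turned for 20 named genes in subcutaneous over epididymal fat, 21 in KO over WT over depots and 3 in brown over white fat. Averaging all probe sets gave -0.0378 for Cox5a and 0.0095 for Cycs in epididymal fat, 0.0906 for Ndufs8 in subcutaneous fat and 0.0623 for Cycs in brown fat. Leaving out the shared probe sets gave -0.0476 for Cox5a and 0.18 for Cycs in epididymal fat, 0.35 for Ndufs8 in subcutaneous fat and -0.0535 for Sdha in brown fat. Cycs in brown fat was 0.0940 after quantile normalization and 0.0277 after loess within the pair. Atp5g3, brown over white, was -0.21 after quantile normalization and -0.20 after cyclic loess, and Atp5j -0.09 and -0.04. Without each array in turn, the brown over white median ran between 1.49 and 1.57 with 70 to 74 members called higher and 1 lower, the subcutaneous over epididymal median between -0.22 and -0.08, and the KO over WT median over depots between -0.08 and -0.01, with 0 members called in both. The brown fat KO over WT median was -0.01 after quantile normalization, with 48 of 81 members lower, and -0.04 after loess within the pair, with 57 lower. The alternatives for the brown minus white difference in each genotype were chosen after seeing the data and moved its median of -0.10 between -0.13 and -0.04.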
